A study of Mus musculus with 2 samples.

Results

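The muscle actins and the genes of the smooth muscle contractile apparatus were described here in Neuro2a cells, a mouse neuroblastoma line, after knockdown of Cpeb1. The group holds 10 genes, namely the actins Acta1, Actc1, Acta2 and Actg2, the actin-binding genes Tagln, Cnn1 and Cnn2, the myosin light chain gene Myl9 and the tropomyosins Tpm1 and Tpm2. They were chosen by their symbols, with earlier values of Acta1 and Acta2 in these same arrays known, so all their values are a description and none of them is independent evidence. On the array, 18 of 45037 probe sets were annotated to 1 of these 10 genes alone, out of 18193 genes in all, and no probe set annotated to several genes named a member.

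Smooth and striated muscle contract by sliding myosin along actin filaments. The muscle actins are nearly identical proteins made from separate genes, tropomyosins lie along the actin filament, and calponins and transgelin bind it. In many cells these genes are transcribed through serum response factor (SRF), which binds a DNA element called the CArG box together with myocardin or the related cofactors of the MRTF family. CPEB1 is an RNA-binding protein that recognises cytoplasmic polyadenylation elements in the ends of mRNAs and sets their polyadenylation and translation.

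Cells of the siCPEB1 group had been transfected for 24 hours with an siRNA against Cpeb1, and those of the siControl group for 24 hours with a control siRNA. From each group 100 ng of total RNA was hybridised to 1 Affymetrix mouse array, so the comparison is between 2 arrays of 1 cell line with no replicate of either condition. No p-value was computed, the spread between cultures was not measured, and the number of arrays limits the precision of every ratio. As RNA of whole cultures was measured, fewer cells expressing a gene and less RNA per cell cannot be told apart.

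Cpeb1 itself had a signal of 38.5 on the siCPEB1 array and 302 on the siControl array, which was 7.86-fold lower with siCPEB1, the direction that the label gives. The median signal was 21.6 on the siCPEB1 array and 21.0 on the siControl array. A probe set passed the filter when its signal reached the array median on at least 1 array and the 25th percentile (5.62 on the siCPEB1 array, 5.07 on the siControl array) on the other. It was then called higher or lower when the ratio of siCPEB1 over siControl was past 2-fold. Where several probe sets passed for 1 gene, their log2 ratios differed with a pooled SD of 0.37, which was 0.54 where the mean signal of both arrays was below 50 and 0.28 between 200 and 1000. This SD covers differences between probe sets on the same 2 arrays only. Of the markers of sympathetic neurons and neuroblastoma, 14 of 15 passed the filter, among them Hand2, a transcription factor of sympathetic neurons, at 4033 with siCPEB1 and 3191 with siControl, whereas Th, which encodes the enzyme tyrosine hydroxylase, did not pass and was below the median of both arrays.

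Among the 18 probe sets, 12 passed the filter, and these came from 8 of the 10 genes. Of these 12, 6 were lower by more than 2-fold, against 4.04% of the 23655 probe sets that passed on the whole array. Tpm2 gave 3 of these 6, so they are not separate genes. Counted at 1 probe set per gene, 4 of the 8 genes were lower by that much, against 3.49% of the 11554 genes that passed. No member was higher by more than 2-fold, against 4.49% of all probe sets, and all 12 had a log2 ratio below 0, against 48% of all. The median log2 ratio was −1.05 for the 12 and 0.02 for all probe sets that passed. Acta1 and Actg2 passed only through the siControl array, where they were high, and so had to differ. Among the 10 member probe sets at or above the median on both arrays, 4 were lower by more than 2-fold, against 2.83% of such probe sets on the array. Of these 4, 1 reads Acta2 and 3 read Tpm2. The median log2 ratio of the 10 was −0.67. With no filter, 7 of the 18 were lower by more than 2-fold, against 11.8% of all 45037. In the other direction 1 of the 18 was higher by more than 2-fold, against 14.2%, and 14 were below 0, against 47.5%. The median log2 ratio of the 18 was then −0.36.

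**Figure D1:**
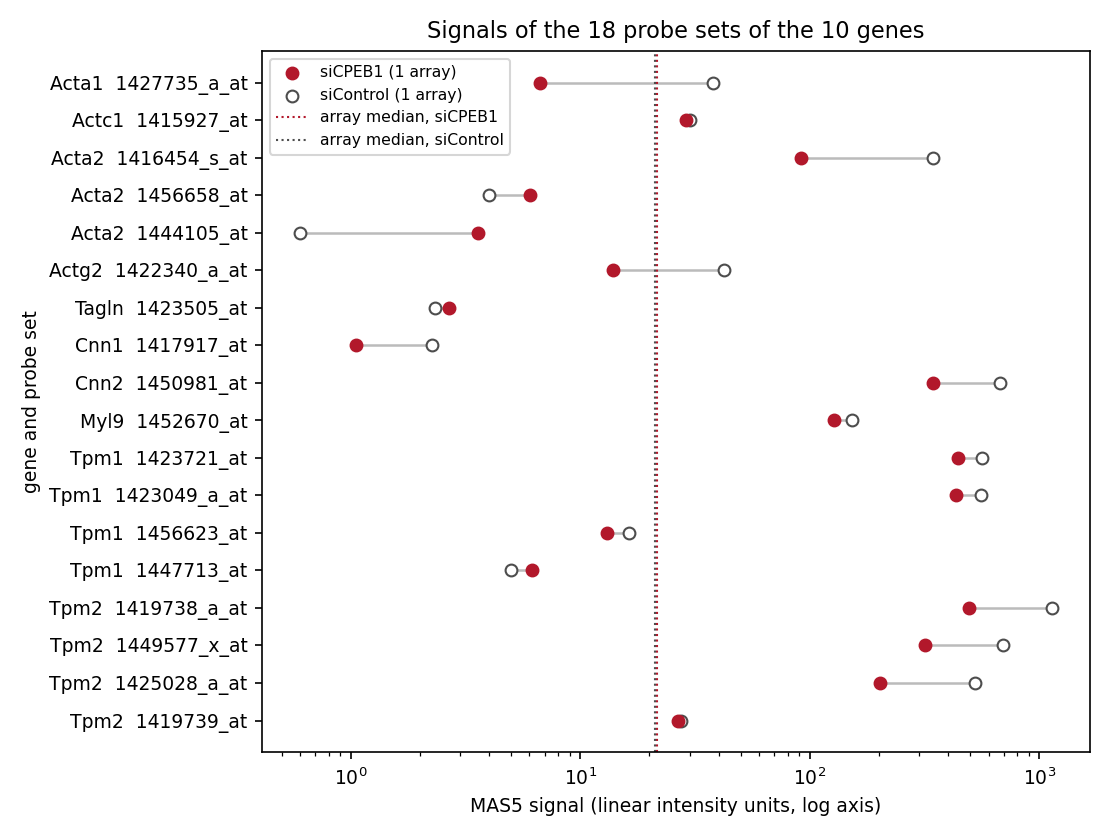
Signal of each of the 18 member probe sets on the siCPEB1 array and the siControl array (log axis, intensity units), with the median of each array drawn as a line. Among the probe sets that passed the filter, those of Acta1, Acta2, Actg2, Cnn2 and Tpm2 with clearly separate values have the siCPEB1 value below the siControl value. Below the array medians the values run in either direction, and the widest gap is that of 1444105_at of Acta2, with 3.59 with siCPEB1 and 0.599 with siControl.

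Of the 4 muscle actins, 3 were lower by more than 2-fold. Acta1 encodes the alpha actin of skeletal muscle. The gene lies at chr8:123891758-123894775 (GRCm38, minus strand). Its probe set 1427735_a_at had a signal of 6.65 with siCPEB1 and 37.9 with siControl, a log2 ratio of −2.51 or 5.69-fold lower. The siCPEB1 value lay below the median of its array, and with that value set to the array median the difference was at least 1.75-fold. Acta2 encodes the alpha actin of vascular smooth muscle and is a common marker of smooth muscle cells and myofibroblasts. It lies at chr19:34240336-34255585 on the minus strand. Its probe set 1416454_s_at had a signal of 91.2 with siCPEB1 and 345 with siControl, a log2 ratio of −1.92 or 3.78-fold lower, with both values above the array medians. The other probe sets of Acta2 did not pass the filter, and no direction was read from their values, which were above those of siControl. Probe set 1456658_at had 6.02 with siCPEB1 and 3.99 with siControl, and 1444105_at had 3.59 with siCPEB1 and 0.599 with siControl, all of them far below the array medians.

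Actg2 encodes the gamma actin of enteric smooth muscle, found in the gut and bladder, and lies at chr6:83512909-83536251. Its probe set 1422340_a_at had 13.9 with siCPEB1 and 42.4 with siControl, a log2 ratio of −1.61 or 3.05-fold lower, and at least 1.96-fold lower with the siCPEB1 value set to the array median. Actc1 encodes the alpha actin of cardiac muscle. Its probe set 1415927_at had 28.9 with siCPEB1 and 30.1 with siControl, a log2 ratio of −0.06, so it did not show the difference of the other 3. Both values lay near the array medians of 21.6 and 21.0, so this ratio is limited by the low signal. The muscle actin transcripts are alike in their coding sequences, and the 1416454_s_at probe set is of the kind whose probes can match transcripts of more than 1 gene, so signal of 1 actin in the probe sets of another was not separated.

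SRF binds the CArG box, written here as a pair of C, 6 bases of A or T and a pair of G. The 300 bases from 250 before to 50 after each gene start (RefSeq, GRCm38.p6) were searched for it on both strands, and a match describes the letters only and is no measured site. The table held a window for 8 of the 10 genes, and Tagln and Actg2 were not matched. A CArG box lay in 4 of these 8 windows (Acta1, Actc1, Cnn2 and Myl9), against 1.81% of 27025 genes with a window. With boxes that have a single G or C among the central 6 bases counted as well, 5 of 8 windows held one, against 11.3% of all these genes, and the added gene was Acta2 with 2 such boxes. Counting both kinds, the windows held 4 boxes in Actc1, 3 in Acta1, 2 in Myl9 and 1 in Cnn2. The windows of Acta2, Tpm1, Myl9, Cnn1 and Tpm2 belong to starts within the annotated gene, whose outermost end lies further upstream, furthest in Tpm1 and Acta2. The stretches around the full CArG boxes and both boxes of Acta2 are printed below 5′ to 3′ on the strand of the gene, to set them beside the ratios, with the box in capitals.
Acta1, chr8:123894814-123894873, minus strand: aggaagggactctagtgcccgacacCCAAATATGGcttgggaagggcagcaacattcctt
Actc1, chr2:114052888-114052947, minus strand: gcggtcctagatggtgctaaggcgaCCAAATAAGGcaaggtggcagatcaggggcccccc
Acta2, distal box, chr19:34255423-34255482, minus strand: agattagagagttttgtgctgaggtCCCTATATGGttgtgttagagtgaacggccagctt
Acta2, proximal box, chr19:34255374-34255432, minus strand: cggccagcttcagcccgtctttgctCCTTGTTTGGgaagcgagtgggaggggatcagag
Cnn2, chr10:79988519-79988578, plus strand: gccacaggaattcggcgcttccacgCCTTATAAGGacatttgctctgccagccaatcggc
Myl9, chr2:156775278-156775337, plus strand: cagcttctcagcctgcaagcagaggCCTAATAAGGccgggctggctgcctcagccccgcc

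Whether the box goes with the ratio was not tested, as few members had both a window and a passing probe set. Acta1, with a box starting 73 bases before the gene start, was 5.69-fold lower. Actc1, with a box starting 47 bases before, had a log2 ratio of −0.06 at signals near the array medians. Tpm2 had neither kind of box in its window and was lower by more than 2-fold. The MCAT element (CATTCC, or GGAATG on the other strand), a motif bound by TEAD factors, lay in the windows of Acta1, Acta2 and Tpm1, against 16.6% of the 27025 genes. Among genes with a CArG box in the window and a passing probe set, counted at 1 probe set each and with the members left out, 9 of 139 (6.47%) were lower by more than 2-fold, 8 (5.76%) were higher and 83 (59.7%) were below 0. Of the 9375 genes with a window that passed, 3.38% were lower by more than 2-fold, 4.64% were higher and 46.1% were below 0. Over all 11554 genes that passed, counted in the same way, 3.49% were lower by more than 2-fold, 4.99% were higher and 46.2% were below 0.

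Transgelin and the calponins bind actin filaments and are used as markers of smooth muscle. Tagln, at probe set 1423505_at, had a signal of 2.69 with siCPEB1 and 2.33 with siControl. Cnn1, at 1417917_at, had 1.05 with siCPEB1 and 2.26 with siControl. Both genes lay below the 25th percentile of both arrays, so these markers of differentiated smooth muscle were low in both conditions, and no direction was read from their log2 ratios of 0.21 for Tagln and −1.10 for Cnn1. Cnn2, the calponin that is also expressed outside muscle, had 343 with siCPEB1 and 671 with siControl at 1450981_at. Its log2 ratio of −0.97, or 1.95-fold lower, lay just inside the 2-fold limit, and scaling both arrays to the same median moved it to −1.01. The nearest called member was the Tpm2 probe set 1449577_x_at at −1.13.

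Myl9 encodes the regulatory light chain of smooth muscle myosin, whose phosphorylation starts contraction. At 1452670_at it had 127 with siCPEB1 and 152 with siControl, a log2 ratio of −0.26, which was smaller than the 0.34 SD between probe sets of 1 gene at mean signals of 50 to 200. The tropomyosins are coded by genes with many alternative transcripts, and several probe sets read each of them. Tpm2, the beta tropomyosin at chr4:43513726-43523583, had 492 with siCPEB1 and 1136 with siControl at 1419738_a_at, a log2 ratio of −1.21. At 1425028_a_at it had 201 with siCPEB1 and 525 with siControl, a log2 ratio of −1.38. At 1449577_x_at it had 318 with siCPEB1 and 696 with siControl. These 3 probe sets were all lower, by 2.19-fold to 2.60-fold, and they read the same gene, so they are not separate measurements of the condition. The other probe set of Tpm2, 1419739_at, had 26.7 with siCPEB1 and 27.5 with siControl, a log2 ratio of −0.04, and so did not share the difference. Both of its signals lay near the array medians, which limits this ratio. The annotation gives it the same source sequence as 1419738_a_at and 1449577_x_at.

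Tpm1, the alpha tropomyosin, differed less than Tpm2. At 1423721_at it had 440 with siCPEB1 and 560 with siControl, a log2 ratio of −0.35. At 1423049_a_at it had 434 with siCPEB1 and 559 with siControl, a log2 ratio of −0.37. These probe sets gave nearly the same ratio. The other probe sets of Tpm1, 1456623_at at 13.1 with siCPEB1 and 16.3 with siControl and 1447713_at at 6.16 with siCPEB1 and 4.98 with siControl, did not pass the filter. In all, 4 genes (Acta1, Acta2, Actg2 and Tpm2) had a probe set lower by more than 2-fold. In Tpm2 another probe set that passed the filter, with signals near the array medians, did not share the difference. The other probe sets of Acta2 did not pass, so no direction was read from them.

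**Figure D2:**
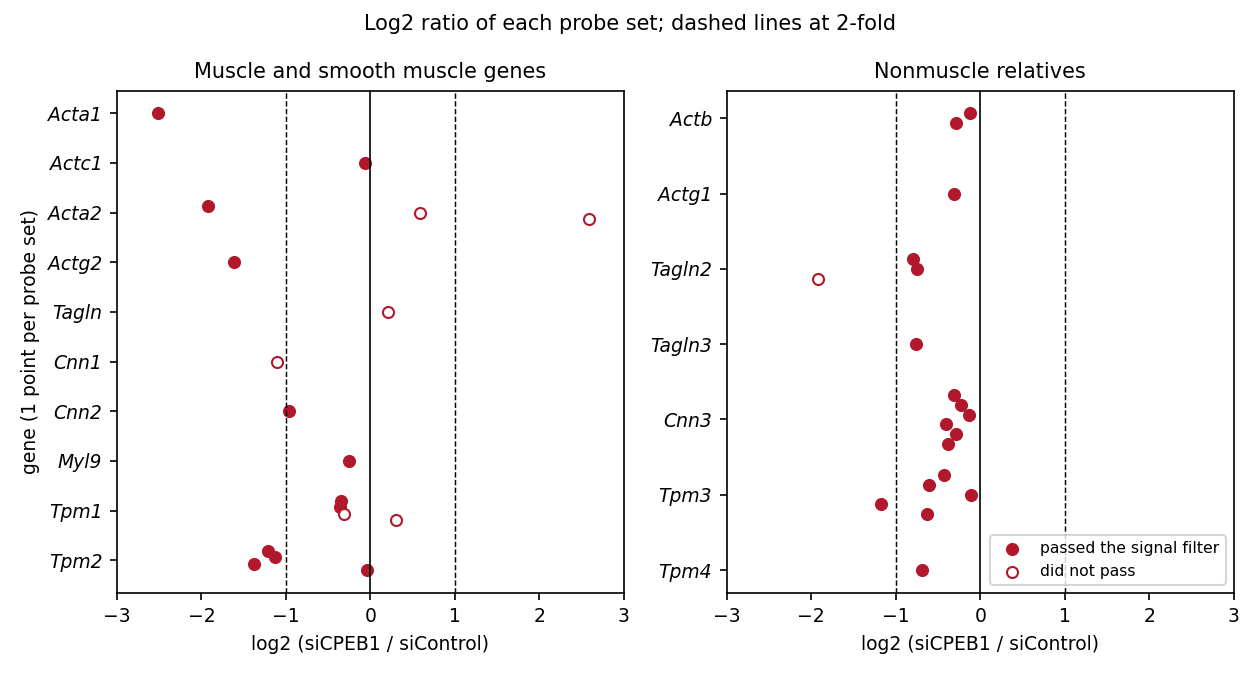
Ratios (log2, siCPEB1 over siControl) of the 18 member probe sets (left) and the 19 probe sets of their nonmuscle relatives (right), with filled points for those that passed the filter, open points for those that did not, and dashed lines at 2-fold. All filled points lie below 0, between −2.51 (Acta1) and −0.04 (1 probe set of Tpm2) on the left and between −1.17 (1 probe set of Tpm3) and −0.11 on the right.

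**Figure D3:**
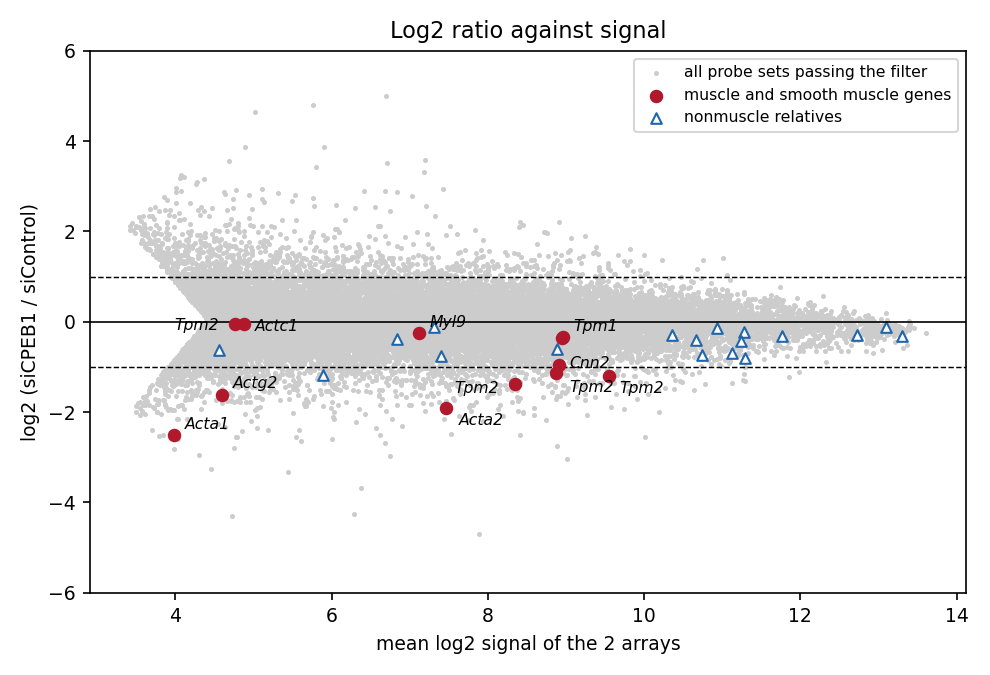
Log2 ratio of siCPEB1 over siControl against the mean log2 signal of the 2 arrays for the 23655 probe sets that passed the filter (grey), the members (red circles) and their nonmuscle relatives (blue triangles), with dashed lines at 2-fold. Acta1 and Actg2 lie where the grey cloud is widest, and Acta2, Cnn2 and 3 probe sets of Tpm2 lie where it is narrower.

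The plot of ratio against signal shows that the width of the ratios depended on the signal. At mean signals below 50, where Acta1 and Actg2 lay, 6.82% of all probe sets that passed were lower by more than 2-fold, against 3.07% at mean signals of 200 to 1000, where most Tpm2 probe sets lay. Among probe sets that reached the 75th percentile on at least 1 array, 4 of 7 member probe sets, those of Acta2 and Tpm2, were lower by more than 2-fold, against 3.31% of 12020. Acta2 reached that percentile only on the siControl array and so had to be lower with siCPEB1, whereas the 3 probe sets of Tpm2 reached it on both arrays.

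The probe sets of the nonmuscle relatives that passed the filter also had siCPEB1 values below the siControl values. Of the 19 probe sets of Actb, Actg1, Tagln2, Tagln3, Cnn3, Tpm3 and Tpm4, 18 passed, and the median was −0.39. All 18 had log2 ratios below 0, against 48% of all probe sets that passed. At mean signals above 1000, where many of these relatives lay, 57.4% of all were below 0, with a median of −0.06. The Tpm3 probe set 1449997_at reached the median only on the siControl array, which favoured a value below 0. Under another scaling 1 of the 18, an Actb probe set, moved to 0.05. The cytoplasmic actin Actg1 had 9091 with siCPEB1 and 11252 with siControl, a log2 ratio of −0.31, and Actb had −0.12 and −0.28 at its 2 probe sets. Actc1, at −0.06 with signals near the array medians, was nearer 0 than Actg1.

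Tagln2, the transgelin found outside smooth muscle, had 1905 with siCPEB1 and 3310 with siControl at 1439407_x_at, a log2 ratio of −0.80. At 1426529_a_at it had 1318 with siCPEB1 and 2208 with siControl, a log2 ratio of −0.74. Its probe set 1420245_x_at, with 4.08 with siCPEB1 and 15.4 with siControl, did not pass the filter. Tagln3, a transgelin of neurons, had 130 with siCPEB1 and 220 with siControl, a log2 ratio of −0.76. The 6 probe sets of the calponin Cnn3 had log2 ratios of −0.41 to −0.14, so all of them were nearer 0 than that of Cnn2. Tpm4, a cytoskeletal tropomyosin, had 1751 with siCPEB1 and 2829 with siControl, a log2 ratio of −0.69. Among the 5 probe sets of Tpm3, 1 was lower by more than 2-fold, 1449996_a_at, with 39.5 with siCPEB1 and 88.9 with siControl, a log2 ratio of −1.17, and the other 4 had log2 ratios of −0.63 to −0.11. Tpm4 and some probe sets of Tpm3 were therefore lower by more than Tpm1, at −0.35 and −0.37. The Tpm3 probe set at −1.17 lay within the range of Tpm2. It was lower by more than the Tpm2 probe sets at −1.13 and −0.04, and by less than those at −1.21 and −1.38. The control probe sets for the 3′ end, the middle and the 5′ end of Actb had log2 ratios of −0.14, −0.23 and −0.23, and those of Gapdh −0.14, −0.17 and −0.11.

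Related genes were counted at 1 probe set each in 8 lists, which were also chosen with results of these arrays known. Of the other genes of smooth muscle contraction, 11 of 16 passed, and 8 of these were below 0, against 46.2% of all genes that passed. By more than 2-fold, 2 were lower and none was higher, against 3.49% and 4.99% of all genes that passed. None higher among 11 genes is thus near the share of all. The median log2 ratio was −0.53, against 0.05 for all genes. Cald1 encodes caldesmon, which binds actin and inhibits contraction, and had 539 with siCPEB1 and 1212 with siControl. Lpp, a gene of focal adhesions, had 65.4 with siCPEB1 and 164 with siControl. Actn1, which encodes a cross-linker of actin filaments, did not share this and had 1580 with siCPEB1 and 1526 with siControl. The smooth muscle myosin heavy chain Myh11 did not pass the filter.

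Of 28 sarcomere genes of striated muscle, 11 passed, and 8 of the 11 were below 0, against 46.2% of all genes that passed. The median log2 ratio was −0.48, beside −0.53 for smooth muscle contraction. Mylpf, Tnnc1, Myl4, Actn3 and Ckm reached the median only on the siControl array, which favoured a value below 0. With no filter 15 of the 28 were below 0, against 8359 of all 18193 genes, with a median of −0.29. Of the 11 that passed, 1 was lower and 1 was higher by more than 2-fold, against 3.49% and 4.99% of all genes that passed. Tnnc1, the troponin C of slow and cardiac muscle, had 21.4 with siCPEB1 and 56.2 with siControl. Myl1, an essential light chain of fast muscle, differed in the other direction with 64.3 with siCPEB1 and 11.2 with siControl. Tnnc1 reached the median only on the siControl array and Myl1 only on the siCPEB1 array, so both had to differ, and with the median required on both arrays 0 were lower and 0 higher. Myh3, the embryonic myosin heavy chain, had 970 with siCPEB1 and 898 with siControl. The list of nonmuscle actins, transgelins, calponin, myosins and tropomyosins holds all 7 nonmuscle relatives given above, so it partly counts them again. In it 11 of 13 genes were below 0, against 46.2% of all genes that passed. At mean signals above 1000, where many of these genes lay, 57.4% of all probe sets that passed were below 0. The median of the list was −0.31, and no gene of it was past 2-fold.

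None of the 8 genes of SRF and its cofactors that passed was past 2-fold, against 3.49% lower and 4.99% higher of all genes that passed. Srf had 97.6 with siCPEB1 and 166 with siControl, a log2 ratio of −0.76. Mrtfa, which encodes a cofactor released by actin polymerisation, had 170 with siCPEB1 and 114 with siControl, a log2 ratio of 0.58. Rhoa, the small GTPase that drives actin polymerisation, had 2559 with siCPEB1 and 3261 with siControl, a log2 ratio of −0.35. Myocd, the muscle-restricted cofactor myocardin, did not pass and had 3.92 with siCPEB1 and 1.35 with siControl. Of 14 known SRF targets outside contraction, 11 passed. By more than 2-fold, 3 were lower and 2 were higher, against 3.49% and 4.99% of all genes that passed. Past 2-fold these targets thus ran in either direction. Of the 11, 7 were below 0, against 46.2% of all genes that passed, and the median log2 ratio was −0.43. Zyx, a focal adhesion gene, had 198 with siCPEB1 and 748 with siControl. Egr3, an immediate early gene, had 20.6 with siCPEB1 and 58.2 with siControl, and Ccn2, a secreted matrix-associated protein gene, had 8.59 with siCPEB1 and 24.8 with siControl. Fos, another immediate early gene, was 4.60-fold higher, with 728 with siCPEB1 and 158 with siControl. Egr1, a further immediate early gene, had 990 with siCPEB1 and 1482 with siControl. Egr3 and Ccn2 reached the median only on the siControl array, where they were high. With the median required on both arrays, 1 target was lower and 2 were higher, and the median log2 ratio was −0.23.

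Markers of other cells that express smooth muscle genes were measured beside these values. Of 14 fibroblast and pericyte markers, 8 passed, and the median log2 ratio was 0.01, with −0.03 to 0.09 under other scalings. By more than 2-fold, 2 were higher and 1 was lower, against 4.99% and 3.49% of all genes that passed. With the median required on both arrays, 1 was higher and 1 was lower. Their summed signal was 11105 with siCPEB1 and 10034 with siControl, most of it from Vim, an intermediate filament gene also expressed outside fibroblasts, with 9373 with siCPEB1 and 8155 with siControl. Without Vim the other 13 summed to 1732 with siCPEB1 and 1880 with siControl, so the direction turned. Fibronectin, Fn1, had 1075 with siCPEB1 and 1406 with siControl, and S100a4 had 182 with siCPEB1 and 228 with siControl. Col1a2, a collagen chain gene, had 309 with siCPEB1 and 42.3 with siControl. Pdgfrb, a receptor of pericytes, had 26.9 with siCPEB1 and 97.1 with siControl, and the pericyte gene Rgs5 had 25.3 with siCPEB1 and 12.1 with siControl. The list was thus detected in part, while 6 of the 14, namely Col1a1, Col3a1, Dcn, Lum, Thy1 and Postn, were below the median of both arrays. Of 7 skeletal muscle lineage factors, 2 passed, and of these Pax3, also a neural crest gene, was higher by more than 2-fold with 828 with siCPEB1 and 325 with siControl. The summed signal of the 7 was 866 with siCPEB1 and 361 with siControl, and without Pax3 it was 37.7 with siCPEB1 and 36.7 with siControl. The other that passed was Myod1, with 22.3 with siCPEB1 and 16.1 with siControl, which reached the median only on the siCPEB1 array. Myog, Myf5, Myf6, Pax7 and Mef2c did not pass.

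Most markers of sympathetic neurons and neuroblastoma that passed had a log2 ratio above 0, some of them a small one, such as 0.16 for Tubb3. Of the 14 that passed, 6 were higher by more than 2-fold, against 4.99% of all genes, and none was lower by that much, against 3.49%. The count of 6 was 4 after median or 75th percentile scaling and 5 after quantile or loess scaling. The median log2 ratio was 0.65, and the summed signal over the 15 was 22463 with siCPEB1 and 17473 with siControl. Isl1, a transcription factor of developing neurons, had 1036 with siCPEB1 and 224 with siControl, and Phox2a, a determinant of noradrenergic neurons, had 1443 with siCPEB1 and 565 with siControl. Gata3 had 172 with siCPEB1 and 46.0 with siControl, and Mycn had 759 with siCPEB1 and 296 with siControl. In the other direction 3 of the 14 were below 0, Gata2 at −0.49, Gap43 at −0.33 and Stmn2 at −0.30. Whether the cells differed in state, and whether that entered the ratios of the actins and tropomyosins, was not tested.

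**Figure D4:**
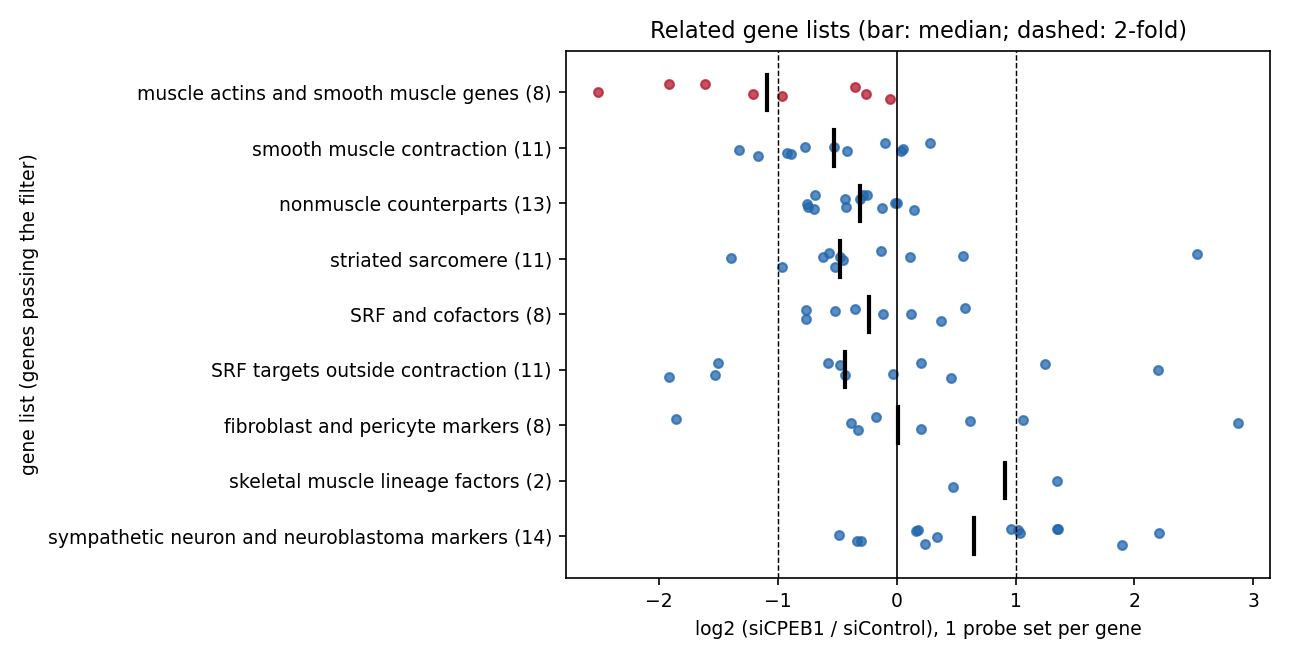
Ratios (log2, siCPEB1 over siControl) of the genes that passed the filter, at 1 probe set per gene, in the members and 8 related lists, with the number of genes in parentheses, a bar at the median and dashed lines at 2-fold. The bar lies at −1.09 for the 8 members, at −0.53 for other smooth muscle contraction genes and at −0.31 for nonmuscle counterparts. It lies at −0.48 for striated sarcomere genes, at −0.23 for SRF and cofactors and at −0.43 for SRF targets outside contraction. For fibroblast and pericyte markers it lies at 0.01, for skeletal muscle lineage factors at 0.91 and for sympathetic neuron and neuroblastoma markers at 0.65.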

How the data were processed

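The authors hybridised RNA of 1 siCPEB1 and 1 siControl sample, and according to the submitters' processing notes MAS5 and Affymetrix Expression Console made the values (no version given). The deposited signals are linear intensity values, 1 per probe set. In MAS5 the background is subtracted and 1 scaling factor is applied to a whole array, toward a target not given in the sources used here. Fold changes that the study tabulated were not used. The log2 ratio was taken of the signals as deposited, without the 64 control probe sets. The platform annotation gave the symbols, which were brought up to date with RefSeq by gene identifier. The members and lists were chosen with earlier results of these data known. In the text, all probe sets of the members and their nearest relatives were given, some of the relatives' as a range, and of each list up to 4 genes past 2-fold that passed the filter and the gene of the highest mean signal, with other genes named as markers after their values were seen. Alternatives were scaling by the median, the 75th percentile, quantiles and loess (span 0.3), other filters, 16 added to both signals, low signals set to the array median, leaving out _x_at and _s_at probe sets, and 1 probe set per gene. Calls were tested on simulated data with large changes at high signals only, which does not cover ratios near 2-fold or low signals. Python 3.11.15, numpy 2.4.6, pandas 2.3.3, statsmodels 0.14.6 and matplotlib 3.10.9 were used.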

Additional observations from a re-analysis of the deposited data

How the results depend on the processing

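With 1 array per condition no replicate could be left out. No paired analysis was possible because each group has 1 sample. Under 11 alternatives the count of member probe sets lower by more than 2-fold was 4 to 7, against 6 with the signals as deposited. It was 7 after median or 75th percentile scaling, where Cnn2 passed the limit at −1.01, and 7 with no filter, where Cnn1 was added. It was 5 with 16 added to both signals, where Actg2 was at −0.97, and 4 with low signals set to the array median, where Acta1 and Actg2 were inside the limit. The count of member probe sets higher by more than 2-fold was 1 with no filter (1444105_at of Acta2, 3.59 with siCPEB1 and 0.599 with siControl) and 0 otherwise. The median log2 ratio of the members was −1.05 as deposited, −0.67 where both arrays had to reach the median, −0.67 without _x_at and _s_at probe sets and −0.36 with no filter. Acta2 at 1416454_s_at ranged over all alternatives that held it from −1.96 to −1.75 and the 3 lower Tpm2 probe sets from −1.42 to −1.09. The log2 ratio of Acta1 ranged from −2.60 to −0.81. Ratios of probe sets below or near the array medians are limited by their low signal.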
